A study of Homo sapiens with 5 samples.

Results

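The telomere-proximal ends of the chromosomes were examined for contacts with each other across chromosomes. The end of a chromosome arm was taken as the 5 outermost bins of 1 Mb with a measurement, on both arms of chromosomes 1 to 12 and 16 to 20 and on the long arm of the acrocentric chromosomes 13, 14, 15, 21 and 22. This rule uses position alone and no contact value. It gave 39 ends with 195 of the 2772 bins used, or 7.03%. All pairs of ends on different chromosomes were used, 136 of a short arm with a short arm, 357 of a short with a long arm and 231 of a long with a long arm, each with 25 bin pairs. Together they hold 18100 of 3638266 trans bin pairs (bins on different chromosomes), or 0.497%.

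A telomere is the repeat cap of a linear chromosome, and the subtelomere next to it holds segments that are duplicated between chromosomes. The telomere repeats themselves are not in the matrices, so the values describe the first measured megabases inside the caps. Chromosome ends of many organisms meet at the nuclear border or in clusters, and in human interphase nuclei telomeres lie on average nearer to the interior than centromeres do. Condensin II is a ring complex that compacts chromosomes along their length and helps keep them apart as territories. Loss of condensin II is known to let centromeres of different chromosomes come together.

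The measurements are in situ Hi-C, in which DNA lying close together in the nucleus is ligated and counted, from RMG1, a human cell line that was established from an ovarian clear cell carcinoma. The control was 1 library of cells with a control hairpin RNA (shControl) and wild-type ARID1A and CAPH2. The ARID1A knockout (ARID1A KO, by CRISPR, CAPH2 wild type) and the CAPH2 knockdown (CAPH2 KD, by a hairpin RNA, ARID1A wild type) had 2 libraries each. ARID1A belongs to the BAF (SWI/SNF) complex, which remodels chromatin. CAPH2, whose current symbol is NCAPH2, is the kleisin subunit of condensin II. The labels do not say whether the knockout is 1 clone, when the knockdown was sampled, or whether the replicates are separate cultures, so the spread between them may be technical. Hi-C gives no RNA or protein level, and the loss of either protein was not checked here. The deposited matrices are balanced, which gives each bin the same total. Contacts before balancing were recovered as whole numbers, 47.7 M (megacontacts) in the control, 31.3 M and 32.3 M in the KO libraries, and 55.3 M and 83.8 M in the KD libraries. The shallower KO libraries therefore have the larger counting error.

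Chromosome ends touched each other across chromosomes more than other parts of the same chromosomes did, in every library. Summed over all end pairs, the signal was 1.85 times its expectation in the control, where the expectation is the mean of all bin pairs of the same 2 chromosomes. This ratio, the observed over expected level, was 1.90 and 1.71 in the KO libraries and 1.88 and 1.87 in the KD libraries. The median end pair was at 1.63 in the control, 1.69 and 1.56 in the KO and 1.65 and 1.66 in the KD. The median of all 140555 trans pairs of 5-bin blocks tiled over the genome was 0.939 in the control and between 0.933 and 0.947 in the other libraries. In the control 596 end pairs lay above 1, or 82.3%, against 41.9% of all block pairs, and 259 lay above 2, or 35.8%, against 1.88%. The KO libraries had 618 and 608 end pairs above 1 and the KD libraries 594 and 597. End pairs took 1.01% of the trans signal in the control, 1.04% and 0.936% in the KO, and 1.03% and 1.02% in the KD.

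The level rests on 82829 recovered contacts in the control, with a median of 98 per end pair. The KO libraries had 71116 and 63406 and the KD libraries 99384 and 153056. On the recovered contacts the ends were above expectation too, at 1.38 in the control, 1.77 and 1.58 in the KO, and 1.38 and 1.42 in the KD. The recovered total of the median end bin was 0.823 of that of the median bin in the control, 0.794 and 0.812 in the KD, and 1.06 and 1.02 in the KO. The log2 difference in level between KO and control was -0.042 on the balanced signal and 0.27 on recovered contacts. With an expectation from the trans totals of the bins it was -0.043 on recovered contacts. Balanced levels are used from here on.

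**Figure D1:**
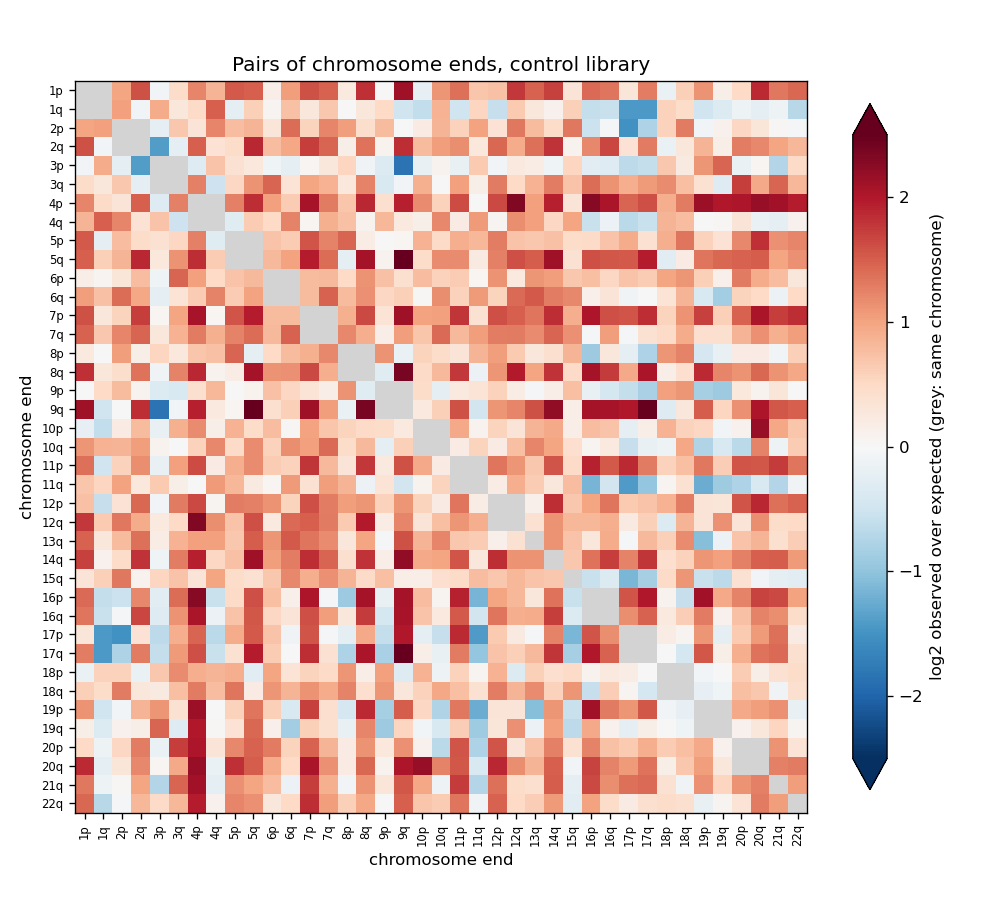
Log2 observed over expected contacts of every pair of chromosome ends in the control library, with ends on both axes in chromosome order and pairs on the same chromosome in grey. Most squares are red (596 pairs, or 82.3%, above an observed over expected of 1), rows such as 7p (37 of 37 partners above 1), 4p (35 of 37) and 5q (35 of 37) are red almost throughout, and the darkest square is 9q with 17q at an observed over expected of 24.0.

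The ends differed in how much they met other ends. Each end's level is its signal with all end bins on other chromosomes over the expectation. In the control the highest was 9q (chromosome 9 from 136000001 to 141000000 in hg19), at 3.31, with 3.28 and 2.82 in the KO and 3.32 and 3.28 in the KD libraries. It was followed by 4p (4:1-5000000), at 2.82 in the control, 2.81 and 2.58 in the KO, and 2.90 and 2.84 in the KD. Both steps of this order, 9q above 4p and 4p above 5q, held in 5 of 5 libraries. The first step rests on the pair of 9q with 17q. Without 17q as a partner, 9q was at 2.60 in the control, 2.48 and 2.11 in the KO, and 2.61 and 2.58 in the KD. It was then below 4p in each library. The next ends were 5q at 2.68, 7p at 2.65 and 8q at 2.42 in the control. The order of 5q and 7p held in 3 of 5 libraries, the control and both KD libraries. In both KO libraries 5q was below 7p, at 2.52 and 2.35 against 2.76 and 2.49. The order thus split by group, and this split was not tested.

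At the low end of the order stood 3p at 1.10, 1q at 1.13, 9p at 1.15, 11q at 1.16 and 19q at 1.29 in the control. For 3p (3:1-5000000) the KO libraries had 1.17 and 1.15 and the KD libraries 1.07 and 1.06. For 1q they had 1.16 and 1.15, and 1.01 and 1.04. The level of 1q was above that of 3p in 1 of 5 libraries, the single control, while 9p was above 1q in 5 of 5. The 11q end was above 9p in 3 of 5, the control and both KD libraries. In both KO libraries it was below 9p, at 1.08 and 1.01 against 1.24 and 1.17. This split by group was not tested. None of the 39 ends had a level below 1 in any library. NCAPH2 is the 13th of 451 protein-coding genes of chromosome 22 counted from the long-arm telomere in the RefSeq order, and the 22q end was at 1.68 in the control and ranked 23 of 39. The order of the ends in the control was close to that in each other library, with Pearson's r between 0.964 and 0.993 over the 39 ends, which share libraries, bins and partners.

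**Figure D2:**
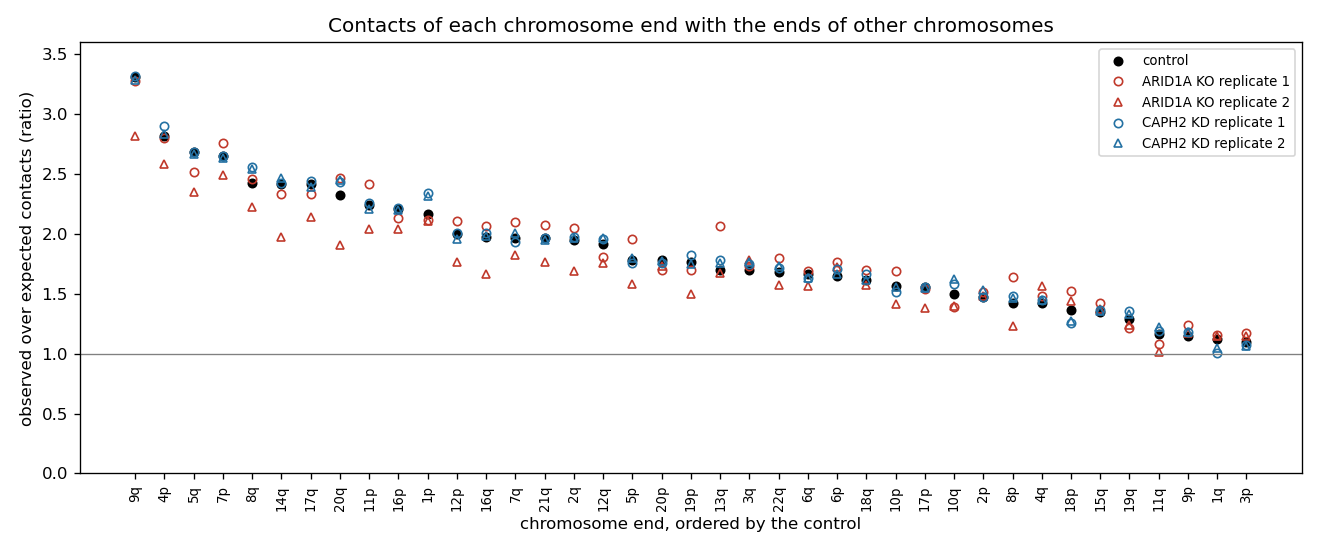
Observed over expected contacts of each of the 39 ends with the ends of other chromosomes, ordered by the control (black points), with the 2 ARID1A KO libraries in red and the 2 CAPH2 KD libraries in blue. All points lie above the grey line at 1, from 9q at 3.31 to 3p at 1.10 in the control, and KO replicate 2 (red triangles) is the lowest of the 5 at many of the ends on the left.

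Long arms and short arms did not separate. On the 17 chromosomes with both ends, the median level in the control was 1.77 for short-arm ends (range 1.10 to 2.82) and 1.91 for long-arm ends (1.13 to 3.31), and the long-arm end was the higher on 9 of 17 chromosomes. The 5 acrocentric long-arm ends had a median of 1.70 and ran from 1.35 (15q) to 2.42 (14q). The level of an end did not follow the size of its chromosome, with r = -0.061 over 39 ends between level and number of measured bins. Ends of the same chromosome could lie far apart, as with 9q, the highest, and 9p, the third lowest, or 4p at 2.82 and 4q at 1.42.

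On the balanced signal, contact between ends was concentrated in the outermost bins. The gradient is not given on recovered contacts. In the control, the outermost measured bin of the ends met the end bins of other chromosomes at 2.51 times expectation, the next bin at 2.02, and the following ones at 1.70, 1.58 and 1.45. Between bins at the same position the gradient was steeper. Outermost bins met each other at 4.61 in the control, at 5.15 and 4.44 in the KO and at 4.74 and 4.51 in the KD libraries. At bin 5 the value was 1.36 in the control, 1.32 and 1.23 in the KO, and 1.32 and 1.33 in the KD. Of the pairs of outermost bins 85.5% were above expectation in the control, and of the pairs of innermost end bins 58.7% were. A single pair of outermost bins held a median of 6 recovered contacts in the control, so only sums over pairs are read here. The pair of 9q and 17q weighs on the second position alone. Without it the values from the outermost bin inwards were 4.59, 2.07, 1.71, 1.51 and 1.36 in the control.

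The fall continued inwards. Blocks of 5 bins counted from the end met the end bins of other chromosomes at 1.85 in the control for the first block, then at 1.26, 1.19, 1.10, 1.04 and 1.08 for the second to the sixth. In the KO libraries the second block was at 1.25 and 1.19 and in the KD libraries at 1.26 in both. The first block was higher than the second in 37 of 39 ends in the control, KO replicate 1 and both KD libraries, and in 36 of 39 in KO replicate 2. All 5 libraries thus show the same profile, with the step between the first and the second block larger than any gap between libraries.

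**Figure D3:**
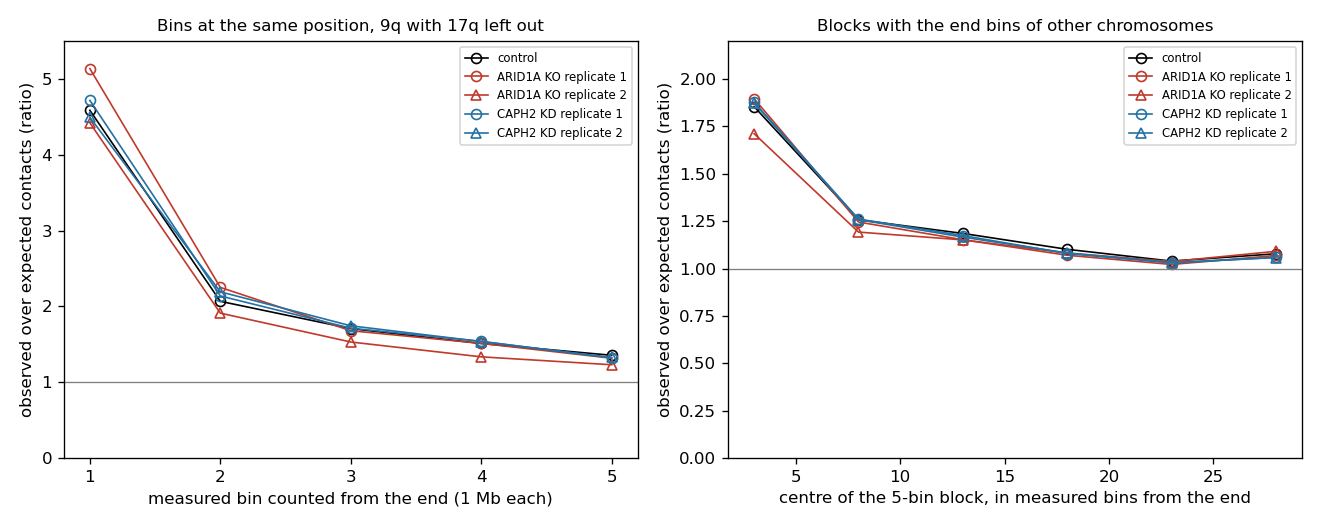
Observed over expected contacts by distance from the chromosome end in each library (control black, ARID1A KO red, CAPH2 KD blue; circles replicate 1, triangles replicate 2). The left panel pairs bins at the same position counted from the end, without the 9q and 17q pair, and falls from 4.59 to 1.36 in the control; the right panel gives 5-bin blocks with the end bins of other chromosomes and falls from 1.85 to 1.08.

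The end bins were rich in the A compartment, which is usually the more open and gene-dense part of the genome. Compartments were called within each chromosome from the first eigenvector of the control's contact pattern. A was taken as the side with the higher share of contacts with other chromosomes, and gene density was not checked. The share of A bins at the ends and its relation to their level are therefore not independent of trans contact. Of the 195 end bins 138 were A, or 70.8%, against 1142 of 2772 bins, or 41.2%. From the outermost position inwards the share of A bins was 87.2%, 76.9%, 64.1%, 66.7% and 59.0%. The 16 ends with all bins in A had a median level of 1.99 in the control, while the 3p end, with no A bin, was the lowest of all at 1.10, and the 3 ends with 1 A bin (1q, 11q and 19q) lay between 1.13 and 1.29. Across the 39 ends the level and the mean eigenvector had r = 0.749 and Spearman's rho = 0.752 as a description. Ends that stood off this relation include 20q, with 2 A bins and a level of 2.33.

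Within the same compartment, ends met ends more than inner blocks did. Blocks of 5 bins inside the chromosomes that were wholly A met the ends at a median of 1.41 in the control (73 blocks), below the 1.99 of wholly A ends. The same medians were 1.34 and 2.09 in KO replicate 1, 1.40 and 1.78 in KO replicate 2, 1.40 and 1.99 in KD replicate 1, and 1.39 and 1.96 in KD replicate 2. When the expectation was taken from bin pairs of the same compartment classes, the log2 level over all end pairs in the control was 0.67, against 0.89 without. End bins also had a higher share of contacts with other chromosomes than the genome had. The median log2 of trans over cis signal was 0.0079 for end bins and -0.55 for all bins in the control. Over the 39 ends this share and the level had r = 0.645.

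**Figure D4:**
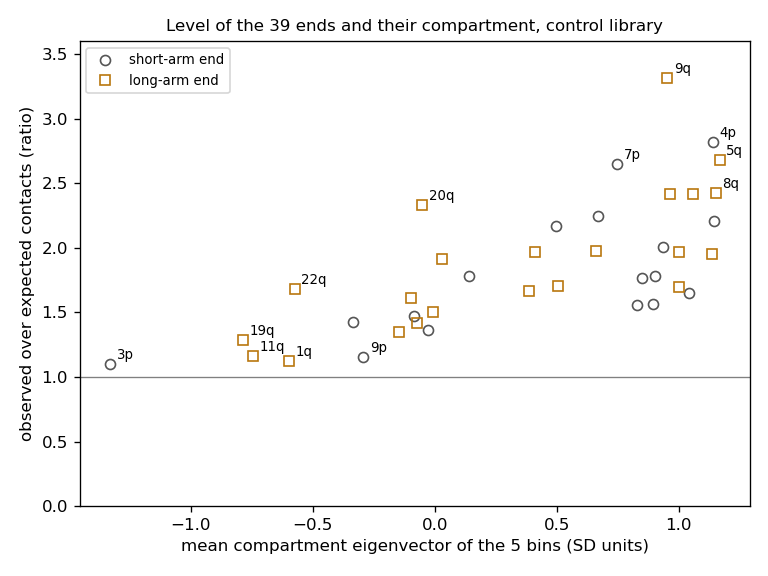
Observed over expected contacts of the 39 ends with other ends in the control, against the mean compartment eigenvector of their 5 bins in SD units, with short-arm ends as circles and long-arm ends as squares. Ends with a higher eigenvector lie higher (r = 0.749), from 3p at 1.10 to 9q at 3.31, while 20q and 22q lie to the left at 2.33 and 1.68.

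Other parts of the chromosomes served for comparison. The bins on both sides of the longest unmeasured gap, which on most chromosomes spans the centromere, met each other across 17 chromosomes at 1.34 in the control, 1.20 and 1.50 in the KO, and 1.56 and 1.54 in the KD libraries. The ends thus met each other more than these bins did in all 5 libraries. Ends with gap sides gave 1.05 in the control, 1.03 and 1.06 in the KO, and 0.997 and 1.00 in the KD, close to expectation. The median inner block met the ends at 0.932 in the control. Of the 506 blocks that are not ends 16 exceeded the median end in the control, 5 and 14 in the KO, and 21 and 20 in the KD libraries.

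The 2 ends of the same chromosome were looked at separately, since they are joined in cis. In the control the median over 17 chromosomes was 0.713 of the mean between the arms of the same chromosome, and 4 of 17 were above 1. Against the mean of trans pairs of ends the cis pair was higher on 13 of 17 chromosomes in the control, with a median ratio of 1.60. In the KO libraries this ratio was 1.44 and 1.80 and in the KD libraries 1.67 and 1.79, and the KO libraries lie on both sides of the control.

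Single pairs of ends covered a wide range, from 0.279 (3p with 9q) to 24.0 (9q with 17q) in the control. A sum of 2 end effects on the log2 scale took up 39.6% of the variance between pairs in the control, and 41.5% to 45.8% in the other libraries. The pattern over pairs was shared between libraries, with r between 0.898 and 0.959 against the control over all end pairs, which share ends and bins.

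The 9q and 17q pair (9:136000001-141000000 with 17:76000001-81000000) stood far above all others. It was at 24.0 in the control, 25.4 and 23.2 in the KO, and 23.9 and 23.9 in the KD libraries, so the groups overlap. It held 1460 recovered contacts in the control. Why this pair was so high was not tested. All 25 of its bin pairs were above 1 in each library, and the strongest, between 9:139000001-140000000 and 17:79000001-80000000, was at 225 times expectation in the control and between 200.4 and 219 in the others. The median bin pair was at 6.37 in the control. Without this pair 9q was at 2.60 in the control instead of 3.31 and 17q at 1.82 instead of 2.42. The overall level without it was 1.82 in the control, 1.85 and 1.67 in the KO, and 1.84 and 1.84 in the KD.

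The next pair was 5q with 9q, at 9.92 in the control, 7.64 and 6.50 in the KO, and 9.25 and 9.17 in the KD libraries. All 25 of its bin pairs were above 1 in the control, from 3.97 to 17.7 with a median of 9.67. In every library the strongest one lay at 5:176000001-177000000, the innermost bin of the 5q end. Both KO libraries lie below the control and the KD libraries, by 0.49 on the log2 scale against the control (SE 0.20, limma adjusted p = 0.868), which does not pass the test. The other pairs among the 8 highest in the control were 8q with 9q at 5.16, 4p with 12q at 4.98, 4p with 16p at 4.84, 9q with 14q at 4.64, 10p with 20q at 4.55 and 4p with 20q at 4.52. The 9q end is in 4 of these 8 pairs and the 4p end in 3.

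The lowest pairs in the control were 3p with 9q at 0.279, 2p with 17p at 0.352, 1q with 17p at 0.367, 1q with 17q at 0.372 and 11q with 17p at 0.377. They rest on 34, 23, 24, 43 and 13 recovered contacts. Chromosome 17 is in 4 of these 5 pairs, with its 17q end in the pair with 1q and its 17p end in the others. The 17p end as a whole ranked 28 of 39, at 1.55. The 17q end ranked 7 of 39, at 2.42, and was at 1.82 without 9q as a partner. The 9q end has both the highest and the lowest pair of all.

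The tips of 4q and 10q carry related repeat arrays, known from facioscapulohumeral muscular dystrophy. The bins used stop at 191000000 on chromosome 4 and at 135000000 on chromosome 10 in hg19, so the arrays at the tips may lie outside them, and the value is that of the neighbouring megabases. The pair of ends was at 2.31 in the control and ranked 183 among all end pairs. It was at 1.48 and 1.58 in the KO and at 2.01 and 2.04 in the KD libraries, so that all 4 lie below the control and the KO libraries lowest. The KO difference from the control was -0.58 on the log2 scale (SE 0.19, limma adjusted p = 0.868). It held 176 recovered contacts in the control, with 53 and 80 in the KO libraries.

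Classes of end pairs named by arm or chromosome had pooled levels from 1.49 to 1.99 in the control, against 1.85 for all end pairs. The pooled level was 1.81 between short arms (136 pairs), 1.98 between long arms (231 pairs) and 1.78 between a short and a long arm (357 pairs). Pairs among the small gene-rich chromosomes 16, 17, 19, 20 and 22 (32 pairs) were at 1.96, those among the large chromosomes 1 to 5 (40 pairs) at 1.68, and those between both kinds (90 pairs) at 1.83. Pairs with the gene-poor chromosome 18 (74 pairs) had the lowest pooled level of these classes, 1.49. The 10 pairs among the acrocentric long-arm ends were at 1.75.

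Loss of ARID1A was compared with the control to see whether chromosome ends met more or less. No end and no end pair passed the test. The overall level of the KO, 1.80 ± 0.131 (SD, n = 2), lay with its 2 libraries on both sides of the single control at 1.85. The median log2 change over end pairs was -0.016, against 0.0016 over all block pairs. Both KO libraries were above the control for 208 end pairs and below it for 230, or 28.7% and 31.8%. The share among all block pairs was 31.6% above and 29.7% below, so the end pairs are near the background. By limma 0 end pairs were called (0% of all block pairs), and 37 had an unadjusted p under 0.05, or 5.11%, where all block pairs had 5.72%. Each pair's 95% interval had a median half-width of 0.50 on the log2 scale, and after adjustment over 140555 block pairs this fit has little power for a single pair. On simulated data it called none of the changed pairs against the control, even at the largest change simulated, so a count of 0 pairs called against the control, for KO or KD, says little about whether pairs changed.

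Summed per end, KO and control could be compared more closely. The fitted changes of the 39 ends ran from -0.17 to 0.13, with a median of -0.039, and the median half-width of their intervals was 0.16. No interval reached beyond -0.44 or 0.42. By limma 0 of 39 ends were called (0% of 545 blocks, adjusted p at least 0.692), and 1 had an unadjusted p under 0.05 (background 6.61%). Both KO libraries were lower for 14 ends and higher for 9, where all blocks had 26.6% lower and 33.4% higher. The KO libraries differed from each other more than the KD libraries did, with an SD of the overall level of 0.131 against 0.00327. Without KO replicate 1 the fit called 25 ends, 24 of them lower, and without KO replicate 2 it called 12, 10 of them higher, with the spread then taken from the KD libraries alone. The 2 KO libraries taken alone therefore point in opposite directions.

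The ends with the smallest p in the KO were 11q, 5q and 10q, and none passed. The 11q end was at 1.16 in the control and at 1.08 and 1.01 in the KO, a change of -0.16 (SE 0.06, limma adjusted p = 0.692). The 5q end was at 2.68 in the control and at 2.52 and 2.35 in the KO. The 10q end was at 1.50 in the control and at 1.39 and 1.39 in the KO. All 3 were lower in both KO libraries on the balanced signal. The direction did not hold under each alternative. The change at 11q turned to 0.056 with an expectation from the trans totals of the bins and to 0.067 with ends of 3 bins. On recovered contacts that of 5q turned to 0.35 and that of 10q to 0.0065. Without KO replicate 1 the changes were -0.20 at 11q, -0.19 at 5q and -0.10 at 10q. Without KO replicate 2 they were -0.11, -0.091 and -0.11 in the same order. Such fits take their spread from the KD libraries alone.

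**Figure D5:**
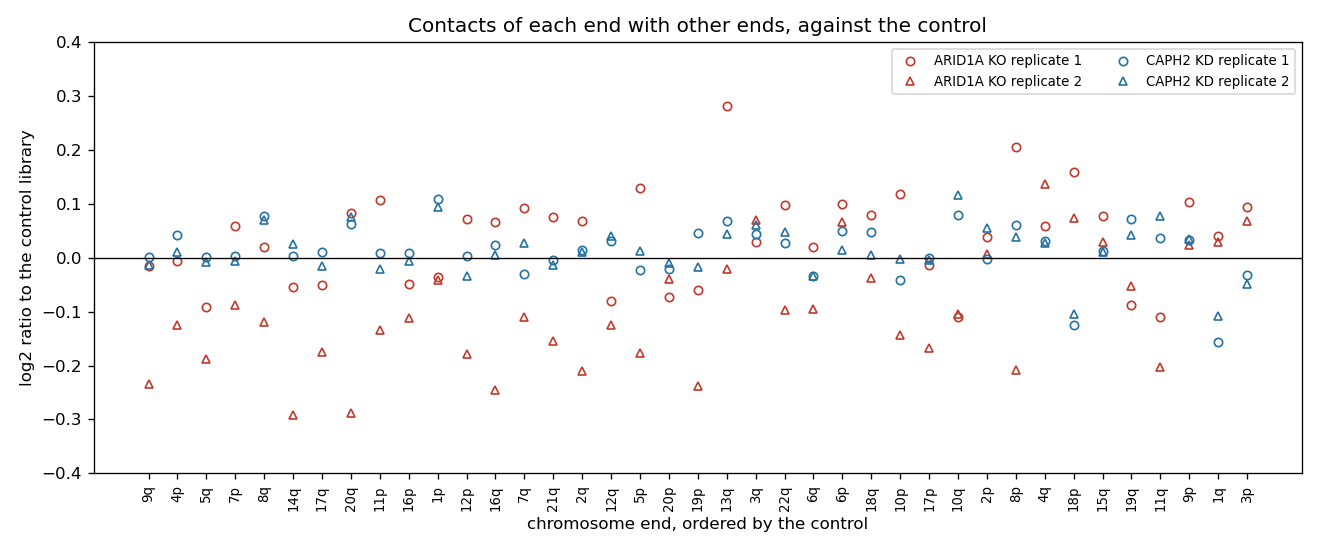
Log2 ratio of each end's observed over expected contacts to the control library, with ARID1A KO in red, CAPH2 KD in blue, circles for replicate 1 and triangles for replicate 2, and ends ordered by their level in the control. The KD libraries stay close to 0 and to each other, while KO replicate 2 lies mostly below 0 and KO replicate 1 mostly apart from it.

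Among single pairs in the KO, the smallest p-values belonged to 1q with 17q, 2p with 17p, 3p with 19q, 16p with 18q and 3p with 9q, all with a limma adjusted p of 0.868. The pair of 1q and 17q was at 0.372 in the control and at 0.670 and 0.714 in the KO. The pair of 2p and 17p was at 0.352 in the control and at 0.608 and 0.695 in the KO. The pair of 16p and 18q was at 0.666 in the control and at 1.12 and 1.22 in the KO, and that of 3p and 9q at 0.279 and at 0.451 and 0.460. These 4 pairs were low in the control and nearer to expectation in both KO libraries. In the order given they rest on 43, 23, 31 and 34 recovered contacts in the control. The log2 changes were 0.81, 0.80, 0.77 and 0.62. Without the outermost bin they were 0.22, 0.38, 0.29 and 0.49, and with ends of 10 bins 0.19, 0.16, -0.027 and 0.16, so the size depends on the bins taken and for 16p with 18q the direction does too.

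The pair of 3p and 19q (3:1-5000000 with 19:54000001-59000000) went the other way. It was at 2.74 in the control and at 1.57 and 0.990 in the KO, a change of -1.10 on the log2 scale (SE 0.29, 95% interval -1.78 to -0.43, limma adjusted p = 0.868). In the KD libraries it was at 3.33 and 2.96. Recovered contacts numbered 391 in the control, 154 and 85 in the KO, and 537 and 712 in the KD. Both KO libraries lie below the other 3 libraries. The change was -1.42 without KO replicate 1 and -0.78 without KO replicate 2. The pair was not called against the control in any alternative that kept both KO libraries.

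By class, the pairs among small gene-rich chromosomes had a median KO change of -0.11, with both KO libraries lower for 18 of 32 and higher for 5, and 1 with an unadjusted p under 0.05. Pairs with chromosome 17 had a median of -0.089, with 35 of 74 lower and 18 higher. Pairs with chromosome 18 had a median of 0.055, with 27 of 74 higher and 17 lower. The 10 pairs of acrocentric long-arm ends had a median of 0.21, with 6 higher and 0 lower. Pairs among large chromosomes had a median of 0.027. No pair of any class was called, and pairs of a class share ends and libraries. The shares for all block pairs are the 31.6% higher and 29.7% lower given above.

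Knockdown of CAPH2 was compared with the control to see whether less condensin II changes how ends meet. The 2 KD libraries lay close together and just above the control, at 1.88 ± 0.00327 (SD, n = 2) against 1.85. The difference of 0.016 on the log2 scale is smaller than the mean SD within groups, 0.054. That mean comes mostly from the KO libraries, whose level had an SD of 0.131 against 0.00327 in the KD. With 1 control library the control's own spread is not known, so whether the difference exceeds the spread cannot be decided. The median log2 change over end pairs was 0.0050, against -0.0070 over all block pairs. By limma 0 end pairs were called (0% of all block pairs), and 11 had an unadjusted p under 0.05, or 1.52% (background 2.8%). Both KD libraries were higher for 282 end pairs and lower for 246, where all block pairs had 35.9% higher and 37.2% lower.

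By end, both KD libraries were above the control for 20 of 39 ends and below it for 8. Of all 545 blocks 25.1% were higher and 56.7% lower in contact with the ends, so blocks at large leaned down while the ends leaned up. The difference between these shares was not tested, and the sizes were small, with a median of 0.015 over the ends and -0.026 over all blocks. Changes ran from -0.13 to 0.10 and no interval reached beyond -0.33 or 0.43. By limma 0 of 39 were called (0% of all blocks, adjusted p = 0.995), and 1 had an unadjusted p under 0.05 (background 2.02%). A fit with either KO library left out takes its spread from the KD libraries alone, and its calls are not read here.

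The 3 ends with the smallest p in the KD were 1q, 1p and 18p, with a limma adjusted p of 0.995. The 1q end was at 1.13 in the control and at 1.01 and 1.04 in the KD, a log2 change of -0.13 (SE 0.05). The 18p end was at 1.37 in the control and at 1.25 and 1.27 in the KD. The 1p end (1:1000001-6000000) was at 2.17 in the control and at 2.34 and 2.32 in the KD. The groups did not overlap at any of these 3 ends, which were chosen by their p. Low ends had no common direction. Of the 5 lowest in the control, 3p and 1q were lower in both KD libraries, and 9p, 11q and 19q were higher.

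The pairs with the smallest p in the KD were 3p with 5q, 3p with 17p, 8p with 20q, 15q with 17p and 1q with 18p, and all had a limma adjusted p of 1.00. The pair of 3p and 5q was at 1.20 in the control and at 0.726 and 0.704 in the KD. The pair of 8p and 20q was at 1.15 in the control and at 1.87 and 1.89 in the KD, and the KO libraries were above the control as well, at 1.94 and 1.47. The pair of 15q and 17p was at 0.452 in the control, 0.642 and 0.721 in the KD, and 0.706 and 0.664 in the KO. For these last 2 pairs the single control library is the one apart from the other 4.

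The KO and KD libraries were also compared directly, which does not rest on the control. The median over end pairs was -0.022, against 0.0095 over all block pairs. Every KO library was above every KD library for 146 end pairs and below for 162, with a background of 22.3% and 19.5%. By limma 0 end pairs were called (0% of all block pairs), and 69 had an unadjusted p under 0.05, or 9.53% (background 9.06%). Per end, changes ran from -0.21 to 0.23 and no interval reached beyond -0.45 or 0.35. Every KO library was lower for 15 ends and higher for 6, where all blocks had 18.2% lower and 42.9% higher. By limma 0 of 39 ends were called (0% of all blocks), and 9 had an unadjusted p under 0.05, or 23.1% (background 24.8%).

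The ends with the smallest p here were 10q, 18p and 11q, each with a limma adjusted p of 0.122. The 10q end was at 1.39 and 1.39 in the KO and at 1.59 and 1.63 in the KD, a difference of -0.21 (SE 0.04). The 18p end was at 1.53 and 1.44 in the KO and at 1.25 and 1.27 in the KD, a difference of 0.23 (SE 0.05). The 11q end was at 1.08 and 1.01 in the KO and at 1.19 and 1.23 in the KD, a difference of -0.21 (SE 0.05). At all 3 ends the control, at 1.50, 1.37 and 1.16, lay between the KO and KD libraries. The 18p end was called with an expectation from trans totals (0.16, limma adjusted p = 0.040) and on recovered contacts (0.39, limma adjusted p = 0.0261). The 11q end was called on recovered contacts (-0.46, limma adjusted p = 0.0266), and its difference turned to 0.012 with an expectation from trans totals. Without KO replicate 1 the fit called 31 of 39 ends (27 lower) and without KO replicate 2 it called 17 (11 higher), again with the spread from the KD libraries alone. The 10q, 18p and 11q ends kept in both of these fits the direction they had with all libraries. They were chosen by their p in the same libraries, so this is no independent check.

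Of the end pairs, 3p with 19q had the smallest p between KO and KD, with a difference of -1.29 (SE 0.23, limma adjusted p = 0.526). The pair of 2p and 17p, at 0.608 and 0.695 in the KO, was at 0.376 and 0.370 in the KD. The pair of 11q and 15q was at 1.11 and 1.13 in the KO and at 2.03 and 1.90 in the KD, with the control at 1.70. The pair of 11q and 18q was at 1.14 and 1.05 in the KO and at 1.72 and 2.04 in the KD. The pair of 3p and 19p was at 2.98 and 2.89 in the KO and at 1.65 and 1.91 in the KD. At 3p, contacts with 19p were thus higher and those with 19q lower in the KO, and neither difference passed the adjustment with all libraries. Without KO replicate 1 the difference at 3p with 19q was -1.62, and without KO replicate 2 it was -0.97. In the same order, 2p with 17p had 0.82 and 0.64, and 11q with 15q had -0.77 and -0.79. The pair of 11q and 18q had -0.81 and -0.70, and that of 3p and 19p had 0.69 and 0.73. These fits take their spread from the KD libraries alone, and the pairs were chosen by their p in the same libraries. They are thus no independent check.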

How the data were processed

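In situ Hi-C libraries of RMG1 cells were grouped by the labels into 1 control, 2 ARID1A KO and 2 CAPH2 KD libraries. For each library the authors deposited a genome-wide matrix of contact signal in 1 Mb bins. Per the submitters' processing notes, Bowtie2 and hg19 were used. Versions, filters and the balancing program were not given in the sources used. The authors' signal is balanced, as read from the values: all row sums lie within 0.5% of the library's median, so read yield per bin is removed and signal is used only as ratios within a library.

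Whole contacts before balancing were recovered from the low trans values, of which 98.3% to 99.5% came out whole within 0.05. An error in a bin's factor by a whole multiple would go unseen. Of 2811 bins of chromosomes 1 to 22 and X measured in all libraries, 39 with a recovered total under 0.25 of the control's median were left out. Chromosomes were tiled from both ends in blocks of 5 bins (545 blocks). Log2(observed over expected + 0.05) of 140555 trans block pairs, and log2 of each block's level with the ends of other chromosomes, were tested with limma 3.58.1 (lmFit and eBayes, R 4.3.3), with all libraries in 1 fit, 2 residual degrees of freedom and Benjamini-Hochberg adjustment over all rows at 0.05. The control's spread is that of the KO and KD libraries. On simulated data with changes of 1.5, 2 and 4 fold the fit of blocks recovered all changes, with a few false calls among KO comparisons. The fit of block pairs recovered none against the control. Changes as small as those fitted for the ends were not simulated, so the power of the fit of blocks for them is not known. Other steps used Python 3.11.15, numpy 2.4.6, scipy 1.17.1 and pandas 2.3.3.

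Named were the 5 highest and 5 lowest ends and the 8 highest and 5 lowest pairs in the control, 4q with 10q, and the 3 ends and 5 pairs with the smallest p in a comparison without calls; 22q, 20q, 14q, 15q and 17q were named after their values were seen. Gene names and order come from RefSeq on another build, so none of its coordinates are used. Members, classes and lists were chosen with earlier results of these data known. Alternatives were other expectations (trans totals, compartment classes, without the top 1%), recovered contacts, 3 or 10 bins, no outermost bin, no bin filter, other pseudocounts, a filter on low values, no chromosome 17, a trended robust fit, the replicate number as a block, and each KO or KD library left out. Recovered contacts with an expectation from trans totals, and the level without 9q with 17q, were added after seeing the data.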

Additional observations from a re-analysis of the deposited data

How the results depend on the processing

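The overall level of end pairs in the control was above expectation under every alternative run. Its log2 value was 0.89, and it was 0.66 with an expectation from trans totals, 0.67 with one by compartment class, 0.95 with one without the top 1% of bin pairs, 0.47 on recovered contacts, 0.60 on recovered contacts with trans totals, 1.27 with 3 bins, 0.46 with 10 bins, 0.59 without the outermost bin and 0.97 with no filter on bins. The median KO change from the control was -0.016, and it was 0.27 on recovered contacts, -0.068 on recovered contacts with trans totals, 0.036 with 3 bins, and -0.069 to 0.045 with libraries left out. Between KO and KD the median was -0.022, and it was 0.27 on recovered contacts, -0.11 with trans totals on these, and -0.062 to 0.034 with libraries left out. The overall level of KO against KD turned to 0.25 on recovered contacts. Ends called between KO and KD numbered 7 with trans totals (2 higher, 5 lower), 14 on recovered contacts (13 higher, 1 lower), 10 on recovered contacts with trans totals (0 higher, 10 lower), and 0 to 31 with libraries left out. Ends called against the control numbered 0 to 25 for KO and 0 to 2 for KD with libraries left out, and end pairs called numbered 0 to 5 for KO against control and 0 to 19 for KO against KD. A fit with 1 KO library takes its spread from the KD libraries and assumes that the lone library varies like them. The direction turned for 11q between KO and control (0.056 with trans totals, 0.067 with 3 bins) and between KO and KD (0.012 with trans totals), for 5q (0.35) and 10q (0.0065) in the KO on recovered contacts, and with 10 bins for 16p with 18q in the KO (-0.027) and 15q with 17p in the KD (-0.010). The cause was not tested. With the replicate number as a block, 1 end, 18p, was called between KO and KD (higher), and no other count of calls changed. The deviations of same-numbered KO and KD libraries had r = -0.0045 over end pairs. With 2 libraries per group the deviations mirror each other, so this 1 value cannot tell whether the numbers pair the libraries. The control has 1 library and could not be left out of its comparisons. As to depth, the median end pair held 73 to 178 recovered contacts and the median pair of outermost bins 5 to 11.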

Other observations

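Some blocks that are not among the 39 ends also met the ends often. The last measured block of the long arm of chromosome X (X:150000001-155000000), which was not among the ends examined, was at 2.28 in the control, 1.98 and 2.17 in the KO, and 2.29 and 2.30 in the KD libraries, the highest of the 506 other blocks in the control, and all 5 of its bins were in A. The first measured block of its short arm (X:4000001-9000000), with no A bin, was at 0.920 in the control. The next highest blocks in the control lay inside chromosomes 6 (30000001 to 35000000, where the major histocompatibility complex lies) at 2.23 and 11 (61000001 to 66000000) at 2.18, both wholly A. The first measured blocks of the acrocentric chromosomes, next to their unmeasured short arms, were lower, at 1.13 for chromosome 13, 1.41 for 14, 0.849 for 15, 0.812 for 21 and 1.28 for 22 in the control. No test was made of these values.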
